A study of Homo sapiens with 24 samples.

Results

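LINC genes are long intergenic non-coding RNA genes, numbered loci that make long transcripts without a coding sequence. Of the 60232 genes in the count table of 22Rv1 cells, 2267 carried a symbol made of LINC and a number, 1079 of them with no read in any library and 918 with fewer than 90 reads over the 9 libraries. The remaining 270 rows, selected on their raw reads summed over all libraries (at least 90), are described here. They hold 269 symbols, because LINC01238 stands under 2 gene identifiers. The summed reads that chose them are values of the same libraries, so a gene strong in 1 group had more chance to enter. Of the 270, 31 kept fewer than 60 reads once their highest group was set aside: some lie close to the limit and some entered through 1 group, and counts are also given for the other 239. The members nearest the limit were LINC01684 with 90.7 reads inside it and LINC00485 with 89.9 reads outside it.

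Long non-coding RNAs are transcribed by RNA polymerase II and, like messenger RNAs, are mostly capped, spliced and polyadenylated. Some act where they are made, on chromatin or on neighbouring genes, others bind proteins or small RNAs elsewhere in the cell, and for most no function is known. They are as a rule less abundant and more restricted to single cell types than messenger RNAs, and a share of them is made at enhancers or by transcription that runs past the end of another gene.

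22Rv1 is an established human prostate carcinoma line. The cells were exposed for 1 h to KB05 or to KB02, each at 200 µM, and then kept for 2 h without compound, or received the vehicle DMSO, and the samples are labelled 3 h. Each group holds 3 libraries, described by the submitters as biological triplicates, and both compounds are known here by code name only. A further 15 samples of the series, labelled 8 h, were not analysed here.

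Library totals lay between 15506975 and 21900548 counts. All 10 markers of luminal prostate cells were detected in every library, with summed TMM-scaled CPM (read counts relative to library size) of 3174 to 3233 with KB05, 2461 to 2620 with KB02 and 2698 to 3064 with DMSO. Of 13 markers of blood, endothelial, stromal and basal cells, 2 or 3 were at 0 in each library and 7 passed the filter on low counts. The list summed to 37.3 to 38.9 CPM with KB05, 42.0 to 53.6 with KB02 and 31.6 to 42.1 with DMSO. PTPRC and COL1A1 were not scarce. PTPRC averaged 11.8 CPM with KB05, 9.67 with KB02 and 14.2 with DMSO, and COL1A1 averaged 19.7, 22.7 and 14.5 CPM in the same groups. CD14, a monocyte marker in this list, had 0.104, 0.455 and 0.632 CPM with KB05, 11.8, 7.57 and 7.04 CPM with KB02, and 0.635, 0.258 and 0.729 CPM with DMSO, the highest in KB02. Of the 10 luminal markers 5 were higher and 2 lower with KB05, and 2 were higher and 6 lower with KB02, among them EPCAM (log2 fold change -1.44) and TMPRSS2 (-1.34). Of the 7 other markers tested, 1 was higher with KB05 and 3 with KB02, and none was lower. Whether shifts in these markers bear on the LINC values was not tested, and in bulk RNA fewer cells of a kind cannot be told apart from less RNA per cell.

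Most LINC transcripts were scarce. The mean level over the 9 libraries ran from 0.513 to 70.2 CPM with a median of 1.76 CPM, against a median of 11.1 CPM over all genes tested and 18.6 CPM over protein-coding genes. There were 82 members under 1 CPM, 133 between 1 and 5 CPM, and 55 at 5 CPM or more. The 10 most abundant members held 30.5% of all LINC CPM. At this depth 3 counts in a library correspond to 0.129 to 0.195 CPM, so the lowest members rest on a few reads per library.

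By CPM, LINC00963, described in prostate cancer, was the most abundant member, at 77.0 ± 2.33 CPM with KB05, 71.5 ± 2.66 with KB02 and 62.3 ± 3.43 with DMSO (SD, n = 3 each). Per kb of merged exon the order was different, because LINC00963 has 13171 exonic bases. Ranked by the mean over all 9 libraries, LINC00685, on the X chromosome beside GTPBP6, led with 33.6 CPM per kb with KB05, 26.7 with KB02 and 24.6 with DMSO. LINC01003 followed with 27.8 CPM per kb with KB05, 16.8 with KB02 and 15.5 with DMSO, and LINC01962 came next with 19.2, 12.7 and 6.86 CPM per kb in the same groups. In the DMSO libraries alone LINC01003 at 15.5 and LINC01670 at 15.3 CPM per kb were close, and LINC01029 and LINC01106, at 11.3 and 10.9, stood above LINC01962. In the KB02 libraries LINC02560, picked after its values were seen, stood above LINC01003 and LINC01962 at 18.8 CPM per kb, beside 9.42 with KB05 and 9.74 with DMSO, and rose with KB02 by 0.95 on the log2 scale (SE 0.18, adjusted p = 5.67e-05). For LINC00685 one KB02 library was apart at 15.8 CPM, beside 9.05 and 9.50 CPM in the others.

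In all, the LINC members took 0.120% ± 0.00259 of reads with KB05, 0.130% ± 0.00139 with KB02 and 0.106% ± 0.00233 with DMSO (SD, n = 3 each). After scaling, their summed level was 1226 ± 25.8 CPM with KB05, 1233 ± 21.1 CPM with KB02 and 1103 ± 3.85 CPM with DMSO. Every library of either compound lay above every DMSO library in this sum, and the libraries of the compounds overlapped each other.

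GENCODE 29 on GRCh38 gives a position for 267 members, on 23 chromosomes; LINC02348, LINC02822 and LINC02964 have none there. Most are of the type lincRNA (215), followed by processed transcript (21) and antisense (16), and 8 are transcribed unprocessed pseudogenes. Despite the name, 138 members overlap another annotated gene, 76 of them on the opposite strand only, 24 on the same strand only and 38 on both, and exons overlap in 85. No label used here says whether the libraries kept strand, so reads of such a member and of its partner cannot be told apart. A further limit is that 77 members start within 10 kb past the end of a gene on the same strand.

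Promoter windows of RefSeq (GRCh38.p14, 250 bases before to 50 after each annotated start) were found for 168 member symbols, in 191 windows. The windows of 4 members named below are shown: LINC01220, which was high with KB05, LINC02558, which was high with both compounds, LINC00242, which was high with KB02, and LINC02604, which moved in opposite directions. Each is written 5′ to 3′ on the strand of the gene. The RefSeq starts of LINC00242 and LINC02604 lie inside the span that GENCODE 29 gives these genes, while those of LINC01220 and LINC02558 are the same in both. LINC01220 lies at chr14:75294154-75294453 on the plus strand, LINC02558 at chr22:31970573-31970872 on the plus strand, LINC00242 at chr6:169798776-169799075 on the minus strand and LINC02604 at chr7:66903870-66904169 on the plus strand. Capitals mark matches, on either strand, to the antioxidant response element TGACNNNGC, the AP-1 site TGANTCA and the CArG box.
LINC01220: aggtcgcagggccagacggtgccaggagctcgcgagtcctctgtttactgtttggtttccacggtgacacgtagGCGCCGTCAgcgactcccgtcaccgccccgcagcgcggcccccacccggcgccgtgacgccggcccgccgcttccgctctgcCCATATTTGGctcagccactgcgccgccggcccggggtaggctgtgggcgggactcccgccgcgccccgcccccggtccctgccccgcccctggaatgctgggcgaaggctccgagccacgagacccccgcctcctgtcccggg
LINC02558: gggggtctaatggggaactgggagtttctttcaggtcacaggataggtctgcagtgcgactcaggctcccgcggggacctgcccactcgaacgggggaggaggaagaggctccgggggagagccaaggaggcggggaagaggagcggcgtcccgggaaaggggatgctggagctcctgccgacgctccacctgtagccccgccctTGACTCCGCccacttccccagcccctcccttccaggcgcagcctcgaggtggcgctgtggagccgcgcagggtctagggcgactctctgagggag
LINC00242: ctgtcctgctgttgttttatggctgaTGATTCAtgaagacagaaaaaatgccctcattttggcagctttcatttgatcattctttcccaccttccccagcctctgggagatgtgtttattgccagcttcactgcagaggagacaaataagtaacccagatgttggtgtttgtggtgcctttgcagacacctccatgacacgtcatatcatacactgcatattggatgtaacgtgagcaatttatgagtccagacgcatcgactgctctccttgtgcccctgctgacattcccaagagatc
LINC02604: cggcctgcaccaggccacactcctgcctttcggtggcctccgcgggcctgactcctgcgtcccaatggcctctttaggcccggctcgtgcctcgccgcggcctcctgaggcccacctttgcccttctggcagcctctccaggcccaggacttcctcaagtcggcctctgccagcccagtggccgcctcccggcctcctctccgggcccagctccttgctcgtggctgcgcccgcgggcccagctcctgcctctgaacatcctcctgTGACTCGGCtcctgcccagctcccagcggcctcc

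In LINC01220 the first run of capitals is an antioxidant-type match on the opposite strand, starting 176 bases before the annotated start, and the second is a CArG box, the core letters bound by serum response factor, starting 94 bases before it. The CArG box was added to the search after this sequence had been read. It is present in 1.29% of the 35116 RefSeq windows and in 2 of the 191 member windows. Antioxidant-type matches are present in 21.5% of member windows (41 of 191) and 13.3% of all windows, and AP-1 matches in 7.85% of member windows and 7.71% of all windows. In LINC02604 the match lies after the annotated start. These matches are descriptions of letters in the windows, and a link to the changes was not tested. Several members have more than 1 window, and such windows can overlap.

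The first question was how LINC transcripts changed 2 h after a pulse of KB05. A gene is called where its adjusted p from edgeR's quasi-likelihood test is under 0.05, adjusted by Benjamini-Hochberg across the 18379 genes that passed the filter. All 270 members were tested. With KB05 against DMSO, 61 members were higher (22.6%), where 18.7% of all genes tested were higher, and 24 were lower (8.89%), where 21.1% of all genes were lower. At least 2-fold higher were 31 members (11.5%), against 4.97% of all genes, and at least 2-fold lower were 7 (2.59%), against 2.7%. In 60 of the 61 and in all 24 the KB05 and DMSO libraries did not overlap, and 17.9% of all genes were higher and 20.3% lower in this way. Whatever the call, these libraries did not overlap in 114 members, and in 49.2% of all genes. Leaving aside the 31 members with under 60 reads outside their highest group, 54 of 239 were higher and 23 lower.

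The median log2 fold change of the members with KB05 against DMSO was 0.20, beside 0.00 over all genes tested and -0.03 over protein-coding genes. Genes of GENCODE type lincRNA that are no members had a median of 0.21 over 786 genes, of which 17.4% were higher and 7.76% lower. Among genes under 5 CPM, 18.6% of the 215 members and 12.9% of all genes were higher, and 5.58% of these members and 7.81% of all genes were lower. At least 2-fold higher were 13.5% of these members, 9.1% of all genes under 5 CPM and 10.4% of the other lincRNA-type genes. The SE of a member's log2 fold change had a median of 0.49 under 1 CPM and 0.14 at 5 CPM or more.

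**Figure D1:**
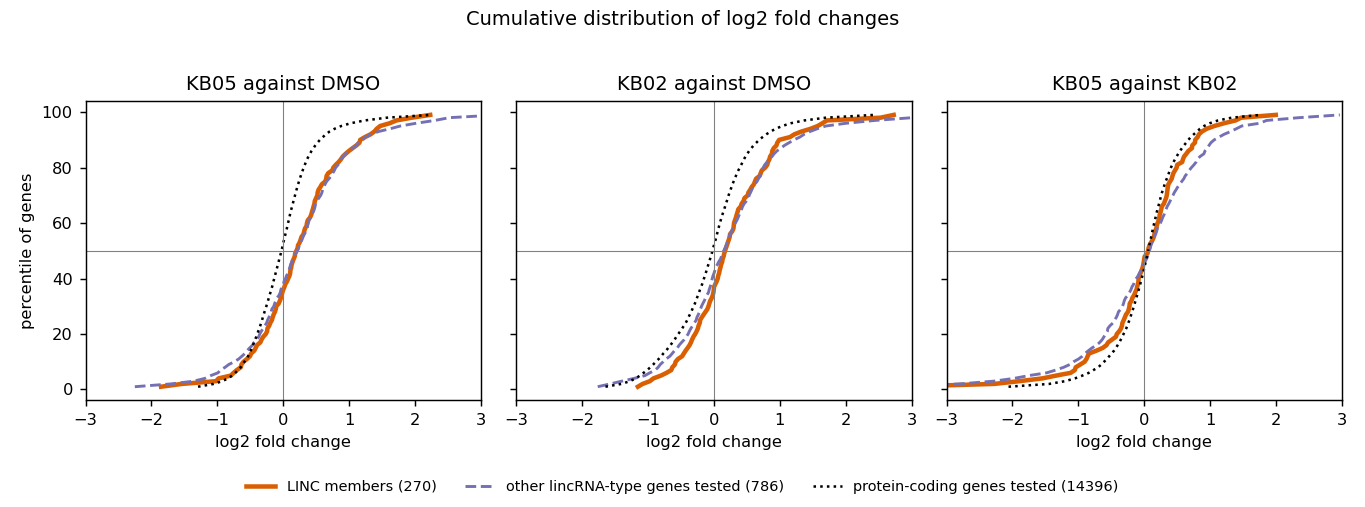
Cumulative distributions of log2 fold changes (x axis) by percentile of genes (y axis) for the 270 LINC members, the 786 other lincRNA-type genes and the 14396 protein-coding genes tested, in the comparisons KB05 against DMSO, KB02 against DMSO and KB05 against KB02. Between the quartiles the LINC curve lies to the right of the protein-coding curve in both comparisons with DMSO, with medians of 0.20 and 0.17, the lower tails with KB05 meet (5th percentile -0.80 for LINC and -0.78 for coding genes), and the LINC median is 0.06 in KB05 against KB02.

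With KB02 against DMSO, 59 members were higher (21.9%), where 22.8% of all genes tested were higher, and 21 were lower (7.78%), where 23.3% of all genes were lower. At least 2-fold higher were 25 members (9.26%), against 6.04% of all genes, and at least 2-fold lower were 7 (2.59%), against 6.28%. No member called in either direction had overlapping KB02 and DMSO libraries, and 21.9% of all genes were higher and 22.3% lower without overlap. Whatever the call, the libraries did not overlap in 117 members, and in 53.5% of all genes. Leaving aside the same 31 members, 47 of 239 were higher and 21 lower. The median log2 fold change was 0.17, beside 0.00 over all genes and 0.15 over the 786 other lincRNA-type genes. Of the latter, 17.7% were higher, 8.14% lower and 9.92% at least 2-fold higher. Among genes under 5 CPM, 18.1% of the members and 14.8% of all genes were higher, and 6.05% and 10.9% were lower. At least 2-fold higher were 11.6% of these members and 10.2% of all genes under 5 CPM. The count of 21 lower members fell to 12 without DMSO replicate 2, to 12 without KB02 replicate 1 and to 13 without KB02 replicate 2. Scaled by library size alone, 80 members were higher and 11 lower, with the median of all genes shifted to 0.13 and the members 0.17 above it.

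Both comparisons use the same DMSO libraries, so their calls are set side by side without a test of likeness. In both, 28 members were higher, where 11% of all genes tested were, and 8 were lower, where 13.2% of all genes were, namely LINC00511, LINC00624, LINC01106, LINC01139, LINC01703, LINC02035, LINC02210 and LINC02469. Of these, LINC00511, LINC01106, LINC01139 and LINC01703 lost 1 or both calls when single libraries were left out, as given below. With KB05 alone 33 members were called higher (against 7.07% of all genes) and 13 lower (against 5.73%). With KB02 alone 28 members were higher (against 9.6% of all genes) and 13 lower (against 9.45%). Alone means only that the other compound's comparison with DMSO missed the threshold. Of those called with KB05 alone, 14 higher and 3 lower members were not called between the compounds. For KB02 alone these were 9 higher and 4 lower members. There were 3 members lower with KB05 and higher with KB02 (against 2.19% of all genes) and none the other way round (against 0.599%). Neither comparison called 144 members, with 41.1% of all genes called in neither, a count that includes members too scarce for a change to be detectable at this depth.

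The direct comparison of the compounds, KB05 against KB02 at the same dose and time, called 34 members higher (12.6%), where 21.8% of all genes tested were higher, and 41 lower (15.2%), where 18.2% of all genes were lower. At least 2-fold higher were 13 members, with 4.11% over all genes, and at least 2-fold lower were 21, with 5.23%. Libraries did not overlap in 31 of the 34 and 40 of the 41, with 20.8% of all genes higher and 17.6% lower in this way. Whatever the call, 107 members had libraries that did not overlap, as had 50.3% of all genes. Leaving aside those 31 members, 31 of 239 were higher and 33 lower. Of the other lincRNA-type genes 16.4% were higher and 12.7% lower. Among genes under 5 CPM, 11.6% of the members and 12.7% of all genes were higher, and 11.6% and 11.5% were lower. The median was 0.06 for the members and 0.06 for all genes. The 34 higher members became 21 without KB02 replicate 1. Scaled by library size alone, 25 members were higher and 50 lower, with the median of all genes at -0.06. Over the 3 comparisons, 133 members were called at least once, where 63.2% of all genes were, and 137 never.

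**Figure D2:**
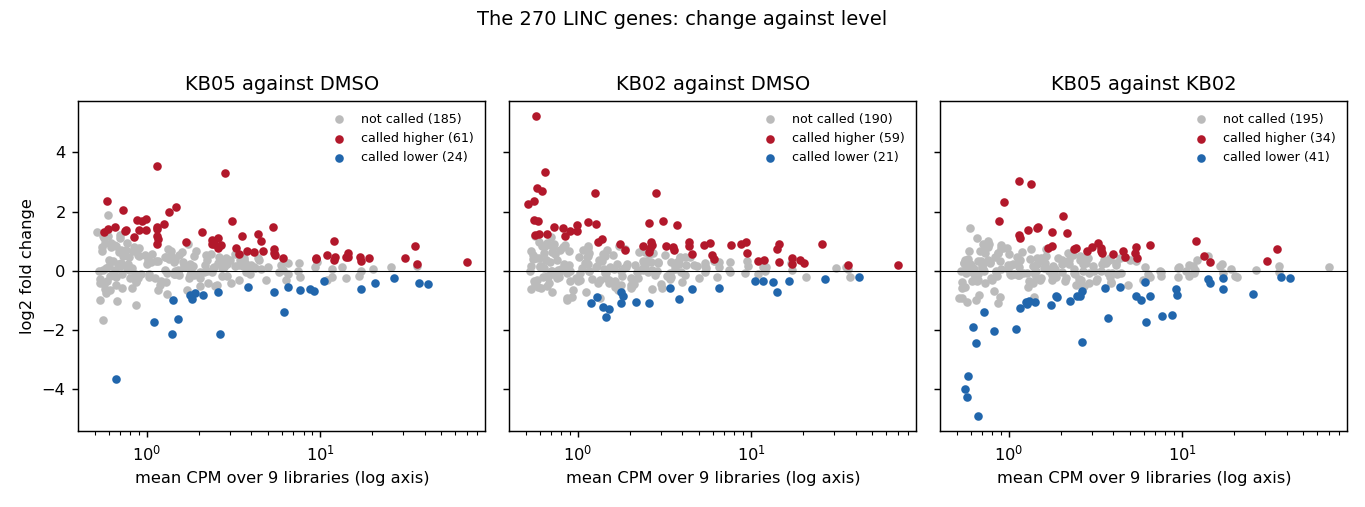
Log2 fold change (y axis) against mean level over the 9 libraries in CPM (x axis, log axis) for the 270 LINC genes in each comparison, coloured by call. Members at 5 CPM or more were called with changes well under 2-fold, while those under 1 CPM needed larger ones; the lowest points in KB05 against KB02 are members with almost no reads with KB05, whose fitted values depend on the fit's prior count.

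LINC01220 had the largest rise with KB05 among members with a mean of at least 1 CPM. It is a lincRNA gene of 3 exons at chr14:75294404-75296638 on the plus strand (GENCODE 29, GRCh38), starting 12174 bp past the end of FOS, which encodes a subunit of the AP-1 transcription factor. Its level was 3.44, 2.47 and 2.70 CPM with KB05, 0.474, 0.360 and 0.166 CPM with KB02, and 0.212, 0.207 and 0.304 CPM with DMSO. KB05 libraries lay far above all others, and KB02 and DMSO libraries overlapped. The log2 fold change was 3.56 (SE 0.43) with KB05 against DMSO, 0.51 (SE 0.53, adjusted p = 0.459) with KB02 against DMSO, and 3.05 (SE 0.40) between the compounds. LINC01220 kept fewer than 60 reads outside the KB05 libraries, so it entered the set through KB05. Its rise with KB05 and its rank are therefore bound to that choice and are given as sizes only. FOS itself stood at 485, 501 and 475 CPM with KB05, 523, 514 and 496 CPM with KB02, and 26.6, 20.7 and 28.2 CPM with DMSO, higher with both compounds and not called between them (log2 fold change -0.07, SE 0.08, adjusted p = 0.512).

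LINC00612 rose with both compounds and was the second largest rise in each among members with a mean of at least 1 CPM and libraries that did not overlap. It is a processed transcript at chr12:9055586-9065070 on the minus strand, starting 2594 bp past the end of A2M, the gene of the protease inhibitor alpha-2-macroglobulin. It had 5.63, 5.01 and 4.08 CPM with KB05, 2.93, 3.96 and 2.33 CPM with KB02, and 0.370, 0.568 and 0.547 CPM with DMSO. No library of either compound overlapped DMSO. Log2 fold changes were 3.30 (SE 0.30, adjusted p = 3.54e-10) with KB05 and 2.63 (SE 0.31, adjusted p = 1.67e-08) with KB02. Its upstream neighbour moved the other way, with A2M at 3.04 ± 0.831 CPM with KB05, 2.10 ± 0.307 with KB02 and 4.54 ± 0.323 with DMSO, lower in both comparisons. The difference of LINC00612 between the compounds, 0.67 (SE 0.23, adjusted p = 0.0223), was lost when any of KB02 replicates 1 and 3 or KB05 replicates 1 and 2 was left out (adjusted p = 0.0565 to 0.112).

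Further transcripts were high with both compounds. LINC02623, at chr10:42871521-42874060 on the plus strand, had 4.06, 4.23 and 3.68 CPM with KB05, 4.01, 4.37 and 3.60 CPM with KB02, and 1.69, 0.568 and 1.46 CPM with DMSO. The compounds' libraries overlapped fully and all lay above DMSO. Its log2 fold change was 1.69 (SE 0.27) in each comparison with DMSO, with adjusted p = 1.02e-05 for KB05 and 4.7e-06 for KB02, while BMS1, 36584 bp upstream and needed for ribosome assembly, was called in neither. LINC02558, at chr22:31970823-31973475 on the plus strand past YWHAH, had 1.51, 1.37 and 1.26 CPM with KB05, 1.21, 1.89 and 1.55 CPM with KB02, and 0.370, 0.516 and 0.608 CPM with DMSO. Here too no treated library reached down to DMSO, with log2 fold changes of 1.47 (SE 0.39, adjusted p = 0.00304) for KB05 and 1.63 (SE 0.38, adjusted p = 0.000675) for KB02. YWHAH, 13220 bp upstream, was higher with both, by 0.20 with KB05 (adjusted p = 0.0319) and 0.42 with KB02 (adjusted p = 2.78e-05).

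LINC02481 and LINC01962 also rose with both, unequally. LINC02481, which starts 2550 bp from the start of S100P on the other strand (chr4:6687448-6690519, minus), had 1.35, 1.11 and 0.862 CPM with KB05, 3.28, 2.30 and 1.27 CPM with KB02, and 0.318, 0.516 and 0.243 CPM with DMSO. KB02 libraries were spread widely and overlapped KB05. It was the largest rise with KB02 in members over 1 CPM (2.64, SE 0.42, adjusted p = 3.54e-06) and rose by 1.59 with KB05 (SE 0.45, adjusted p = 0.00484), but the difference between compounds, called at adjusted p = 0.0198, ended without KB02 replicate 1 (0.182) or KB05 replicate 3 (0.0854). LINC01962, 2072 bp past the ubiquitin ligase gene TRIM7 (chr5:181191046-181191852, minus), had 7.76, 6.24 and 9.71 CPM with KB05, 5.39, 5.67 and 4.54 CPM with KB02, and 2.75, 3.15 and 2.55 CPM with DMSO. The groups did not overlap, with rises of 1.49 (SE 0.19, adjusted p = 2.01e-07) for KB05 and 0.88 (SE 0.19, adjusted p = 0.0003) for KB02. Its call between the compounds (0.60, SE 0.17, adjusted p = 0.00612) ended without KB05 replicate 3 (adjusted p = 0.0885), and TRIM7 was called in no comparison.

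Another set rose with KB05 and was not called with KB02. LINC02875, a single-exon gene 2285 bp past the T-box transcription factor gene TBX2 (chr17:61411751-61413280, plus), had 3.86, 4.42 and 2.76 CPM with KB05, 0.690, 1.22 and 1.16 CPM with KB02, and 1.01, 1.45 and 2.01 CPM with DMSO. KB05 libraries stood above all 6 others, and KB02 overlapped DMSO. Its log2 fold change was 1.31 (SE 0.30, adjusted p = 0.00072) with KB05 and -0.54 (SE 0.33, adjusted p = 0.193) with KB02. TBX2 gave 1.23 (SE 0.17) and -0.32 (SE 0.18) in these comparisons, called with KB05 only, and both genes were higher with KB05 than with KB02, by 1.85 (SE 0.31) for LINC02875 and 1.55 (SE 0.17) for TBX2.

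LINC01465 and LINC02983 share exonic sequence with genes on the opposite strand. LINC01465 overlaps the host gene of the let-7i microRNA (chr12:62601751-62603690, minus) and had 3.28, 2.08 and 3.05 CPM with KB05, 1.08, 0.901 and 1.05 CPM with KB02, and 0.794, 0.465 and 0.608 CPM with DMSO. Its rise of 2.17 (SE 0.34, adjusted p = 6.3e-06) was seen in KB05 libraries without overlap, and 0.69 (SE 0.36, adjusted p = 0.123) was the value with KB02, whose libraries also lay above DMSO but missed the threshold. LINC02983 (chr7:5426277-5428927, minus) had 4.06, 2.34 and 2.36 CPM with KB05, 0.345, 0.405 and 0.388 CPM with KB02, and 0.212, 1.03 and 0.973 CPM with DMSO. KB05 was above both other groups, by 1.99 (SE 0.40, adjusted p = 0.000184) over DMSO and 2.93 (SE 0.43, adjusted p = 1.77e-06) over KB02. LINC03073, whose exons overlap LINC02983 and which was picked after its values were seen, rose by 1.67 (SE 0.43, adjusted p = 0.00217), and the reads of this pair cannot be told apart without strand. LINC02731, at chr11:134032272-134046849, was also among the 10 largest rises with KB05 (1.42, SE 0.37, adjusted p = 0.00288), with 1.67 to 2.08 CPM with KB05 against 0.547 to 0.826 CPM with DMSO.

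**Figure D3:**
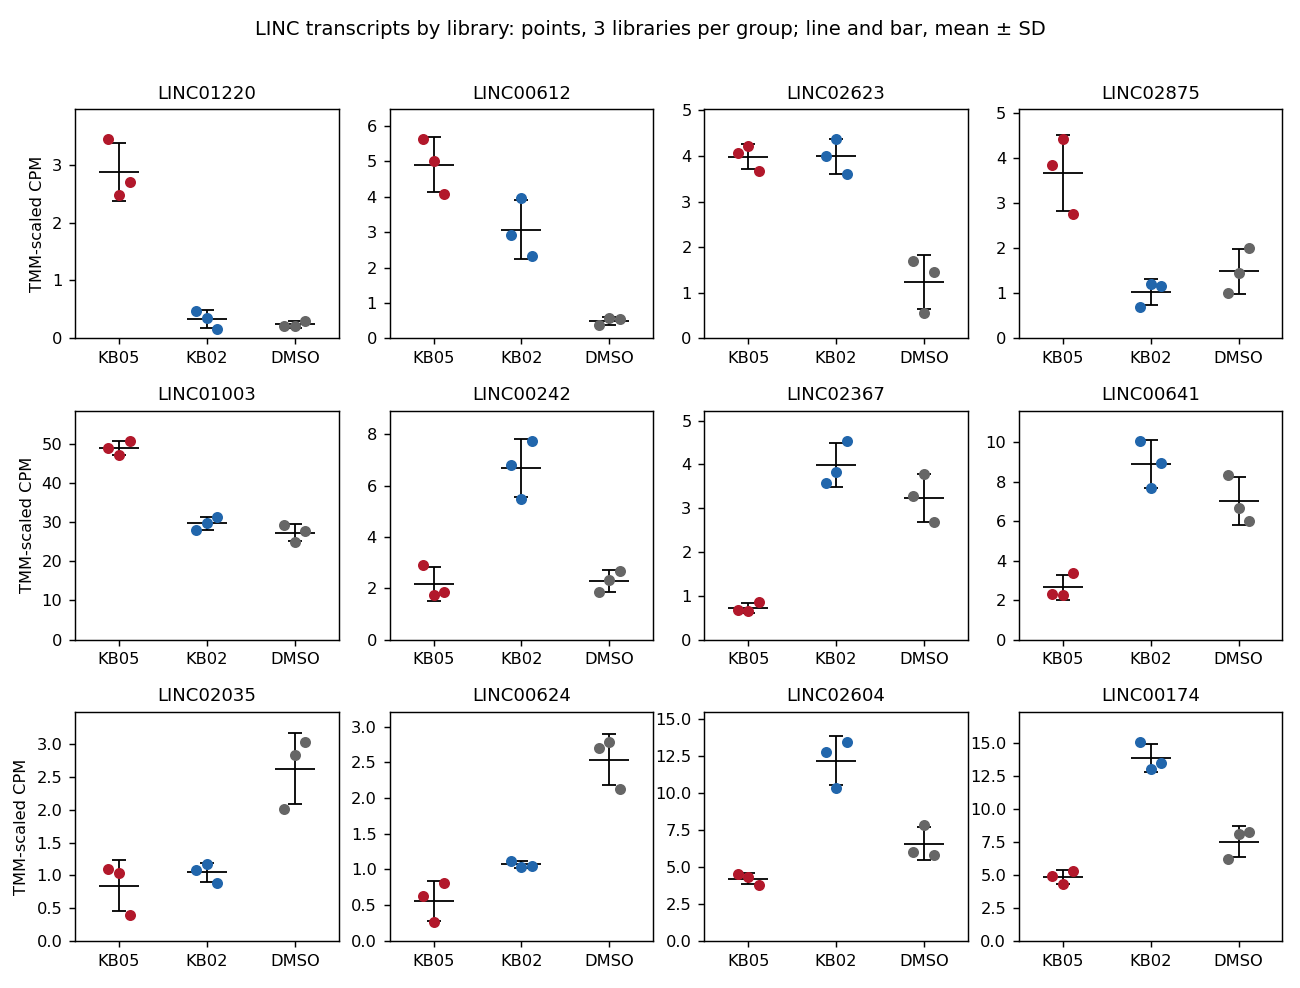
Level in TMM-scaled CPM (y axes, each from 0) of 12 LINC genes in every KB05, KB02 and DMSO library (points), with the mean and SD of 3 libraries. LINC01220, LINC02875 and LINC01003 stand out in KB05, LINC00242 in KB02, LINC00612 and LINC02623 in both, LINC02367 and LINC00641 are low in KB05, LINC02035 and LINC00624 low in both, and LINC02604 and LINC00174 lie on opposite sides of DMSO. LINC01220 entered the set through its KB05 reads.

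Falls with KB05 were fewer than rises, 24 against 61. LINC02367, at chr12:9367464-9397617 on the plus strand with no protein-coding gene within 100 kb, had 0.677, 0.650 and 0.862 CPM with KB05, 3.58, 3.83 and 4.54 CPM with KB02, and 3.28, 3.77 and 2.67 CPM with DMSO. KB05 libraries lay below all others and KB02 overlapped DMSO. It fell by 2.14 (SE 0.28, adjusted p = 3.06e-07) against DMSO, a 4.42-fold difference, and was 2.43 lower than with KB02 on the log2 scale (log2 fold change -2.43, SE 0.27, adjusted p = 1.47e-08). With KB02 its value was 0.29 (SE 0.23, adjusted p = 0.318).

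LINC00641 followed the same pattern at a higher level. It lies 2236 bp past HNRNPC, which encodes an abundant nuclear RNA-binding protein (chr14:21200079-21206900, minus), and had 2.29, 2.28 and 3.39 CPM with KB05, 10.1, 7.66 and 8.92 CPM with KB02, and 8.36, 6.66 and 6.02 CPM with DMSO. KB05 was below both other groups without overlap. The log2 fold change was -1.40 (SE 0.19, adjusted p = 6.6e-07) with KB05 against DMSO and -1.74 (SE 0.19, adjusted p = 5.71e-09) against KB02, and with KB02 against DMSO its value was 0.34 (SE 0.17, adjusted p = 0.0965). HNRNPC itself was at 789 ± 13.7 CPM with KB05, 724 ± 38.6 CPM with KB02 and 769 ± 7.51 CPM with DMSO, and was called in no comparison. LINC01355, a single-exon gene 17019 bp past HNRNPR (chr1:23281308-23286752, minus), had 0.834, 0.195 and 0.115 CPM with KB05, 1.77, 1.67 and 1.33 CPM with KB02, and 1.32, 1.55 and 1.09 CPM with DMSO. One KB05 library was well above its replicates but still under every other library, and the fall of 1.73 on the log2 scale had an SE of 0.47 (adjusted p = 0.0041).

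LINC00624 and LINC02035 fell with both compounds, each beside a coding gene that fell. LINC00624 runs antisense to CHD1L, a chromatin remodeller, and shares exonic sequence with it (chr1:147258885-147517875, minus). It had 0.625, 0.260 and 0.805 CPM with KB05, 1.12, 1.04 and 1.05 CPM with KB02, and 2.70, 2.79 and 2.13 CPM with DMSO. The groups did not overlap, and the log2 fold changes were -2.14 (SE 0.36, adjusted p = 1.81e-05) for KB05 and -1.24 (SE 0.33, adjusted p = 0.00215) for KB02. CHD1L stood at 26.7 ± 0.66 CPM with KB05, 32.8 ± 2.75 with KB02 and 49.2 ± 1.58 with DMSO, so that without strand the antisense values can hold reads of CHD1L.

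LINC02035, a single-exon gene 5802 bp past the transporter gene SLC49A4 (chr3:122886941-122892416, plus), had 1.09, 1.04 and 0.402 CPM with KB05, 1.08, 1.17 and 0.887 CPM with KB02, and 2.01, 2.84 and 3.04 CPM with DMSO. Every DMSO library was above every treated one. Log2 fold changes were -1.63 (SE 0.35, adjusted p = 0.000351) with KB05 and -1.32 (SE 0.33, adjusted p = 0.00141) with KB02, beside -0.48 (SE 0.14) and -1.36 (SE 0.15) for SLC49A4, called in both. LINC02469, at chr4:79663761-79696837 with no coding gene within 100 kb, also fell in both, with 1.34 ± 0.261 CPM with KB05, 1.45 ± 0.0514 with KB02 and 2.64 ± 0.155 with DMSO (SD, n = 3 each), or -0.98 (adjusted p = 0.00639) and -0.86 (adjusted p = 0.0109) on the log2 scale.

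Further falls with KB05 were seen in LINC02908, LINC01445, LINC01291 and LINC01560. LINC02908, which overlaps the transporter gene ABCA2 and shares exons with FUT7 on the opposite strand, gave a log2 fold change of -0.81 (adjusted p = 0.0138), beside -0.70 for ABCA2, which was called lower. LINC01445 fell by 1.00 on the log2 scale, with a call that ended without DMSO replicate 3 (adjusted p = 0.0627) or without KB05 replicate 1 (0.102) or 2 (0.0674). For LINC01291 a fall of 0.81 on the log2 scale ended without DMSO replicate 2 (0.0679) or KB05 replicate 1 (0.0868). LINC01560 passed with an adjusted p of 0.04999 and failed in 12 of the alternatives, at 0.0519 to 0.201.

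LINC00242 and LINC03061 rose with KB02 and were not called with KB05. LINC00242, a lincRNA gene (chr6:169788790-169799549, minus) that overlaps LINC00574, had 2.92, 1.76 and 1.84 CPM with KB05, 6.81, 5.49 and 7.76 CPM with KB02, and 1.85, 2.32 and 2.67 CPM with DMSO. KB02 libraries were above the 6 others, and KB05 overlapped DMSO. The log2 fold change was 1.55 (SE 0.22, adjusted p = 6.31e-07) with KB02, -0.05 (SE 0.24, adjusted p = 0.888) with KB05, and -1.60 (SE 0.22, adjusted p = 6.32e-07) between KB05 and KB02. Its nearest coding gene ERMARD, 7206 bp away, was lower with KB05 (-0.76, SE 0.13) and not called with KB02.

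LINC01511, on chromosome 5 near the dopamine transporter gene SLC6A3 (chr5:1363582-1380067, minus), had 2.45, 2.08 and 2.24 CPM with KB05, 3.92, 5.00 and 3.49 CPM with KB02, and 1.11, 1.24 and 1.70 CPM with DMSO. The 3 groups were apart, with KB02 highest. The rise was 1.62 (SE 0.25, adjusted p = 3.29e-06) with KB02 and 0.75 (SE 0.27, adjusted p = 0.0261) with KB05, the second ending without any 1 of 4 libraries, DMSO replicates 1 and 2 and KB05 replicates 1 and 3 (adjusted p = 0.0521 to 0.099). LINC03061 rose by 1.59 with KB02 (SE 0.36, adjusted p = 0.000411) to 2.13 ± 0.535 CPM, against 0.698 ± 0.278 CPM with DMSO, and its value with KB05 was 0.47 (SE 0.39, adjusted p = 0.36). LINC01569 (0.98), LINC00343 (0.97) and LINC01632 (1.07) closed the list of rises, and the last was lost when either DMSO replicate 1 (adjusted p = 0.105) or KB02 replicate 2 (0.101) was left out.

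Of the falls with KB02, LINC02381 was the largest. It overlaps SMUG1, a DNA repair glycosylase gene, on the other strand (chr12:54126098-54142493, plus), and had 2.40, 1.17 and 1.72 CPM with KB05, 0.733, 0.630 and 0.554 CPM with KB02, and 1.85, 1.34 and 2.61 CPM with DMSO. KB02 was below all other libraries and KB05 overlapped DMSO. Its log2 fold change was -1.57 (SE 0.36, adjusted p = 0.000598), and that of SMUG1 was -0.37 (SE 0.08). LINC01703, past the histone H3.3 gene H3-3A (chr1:226083639-226090292, plus), was at 2.23 ± 0.11 CPM with KB05, 1.74 ± 0.445 with KB02 and 3.72 ± 0.629 with DMSO. It fell with KB02 (-1.09, SE 0.25, adjusted p = 0.000557) where H3-3A was not called (0.05, SE 0.07), and its fall with KB05 (-0.73, adjusted p = 0.0185), beside -0.70 for H3-3A, ended without DMSO replicate 3 (0.0864) or KB05 replicate 3 (0.0554).

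LINC01139, LINC03064, LINC00865, LINC01709 and LINC02913 were further falls with KB02, with log2 fold changes of -0.97, -1.08, -1.08, -1.11 and -0.91. LINC01139 averaged 2.67 ± 0.533 CPM with KB02 and 5.26 ± 0.824 CPM with DMSO (SD, n = 3 each), and this call was kept in every alternative. Its fall with KB05 (-0.55, adjusted p = 0.0418) ended without DMSO replicate 1 (0.176), DMSO replicate 2 (0.0878) or KB05 replicate 3 (0.25), with DESeq2 (0.0628), and with upper-quartile (0.0538) or library size scaling (0.0561). Calls of the others ended without 1 library: LINC03064 without KB02 replicate 1 (adjusted p = 0.0525), LINC00865 without DMSO replicate 1 (0.0627) or KB02 replicate 2 (0.0577), and LINC01709 without DMSO replicate 1 (0.0567), DMSO replicate 2 (0.16) or KB02 replicate 1 (0.226). LINC02913, at adjusted p = 0.0485, failed in 14 alternatives at 0.0516 to 0.3.

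LINC02604 and LINC00174 moved in opposite directions with the compounds. LINC02604, a single-exon gene at chr7:66902857-66906297 on the plus strand, had 4.53, 4.29 and 3.79 CPM with KB05, 12.8, 10.3 and 13.5 CPM with KB02, and 6.03, 7.85 and 5.84 CPM with DMSO. All 3 groups were apart. LINC00174, on the same chromosome (chr7:66376044-66493566, minus), had 4.95, 4.29 and 5.29 CPM with KB05, 15.1, 13.1 and 13.5 CPM with KB02, and 6.19, 8.16 and 8.27 CPM with DMSO, again without overlap. Against DMSO, LINC02604 gave -0.65 (SE 0.17, adjusted p = 0.00223) with KB05 and 0.88 (SE 0.15, adjusted p = 9.74e-06) with KB02, and LINC00174 gave -0.63 (SE 0.15, adjusted p = 0.00129) with KB05 and 0.89 (SE 0.14, adjusted p = 2.84e-06) with KB02. Between the compounds the log2 fold changes were -1.53 (SE 0.16) for LINC02604 and -1.52 (SE 0.15) for LINC00174, a direction that follows from the opposite calls against DMSO. Among their neighbours, TMEM248, 14928 bp from LINC02604, was lower with both compounds, and TPST1, which LINC00174 overlaps, was higher with KB05 by 0.31 and not called with KB02. LINC00174 shares exons with 5 other annotated genes, among them pseudogenes, so part of its reads may be assigned by estimate.

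The abundant members changed by less and were measured more closely. LINC01003, a single-exon gene at chr7:152463786-152465549 on the plus strand, had 48.9, 47.2 and 50.8 CPM with KB05, 28.0, 29.9 and 31.2 CPM with KB02, and 29.3, 25.0 and 27.7 CPM with DMSO. KB05 was above both other groups, which overlapped. The rise was 0.84 (SE 0.08, adjusted p = 2.02e-09) with KB05, and 0.12 (SE 0.08, adjusted p = 0.266) was the value with KB02. KMT2C, a histone H3 lysine methyltransferase gene whose start lies 27781 bp away on the other strand, was at 37.9 ± 1.31 CPM with KB05, 167 ± 5.63 with KB02 and 75.5 ± 1.26 with DMSO, called lower with KB05 and higher with KB02.

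LINC00963 had 74.4 to 78.8 CPM across the KB05 libraries and 58.5 to 65.2 CPM across DMSO, a rise of 0.31 (SE 0.07, adjusted p = 0.000852). Its rise of 0.20 with KB02 (adjusted p = 0.0215) ended when DMSO replicate 1 (0.0876) or KB02 replicate 3 (0.0694) was left out. LINC00511, a lncRNA reported in several carcinomas, was at 37.4, 34.8 and 33.9 CPM with KB05, 43.7, 44.9 and 37.8 CPM with KB02, and 46.4, 48.1 and 52.0 CPM with DMSO. It fell with KB05 by 0.46 (SE 0.08, adjusted p = 4.17e-05), and its fall of 0.21 with KB02 ended without any 1 of 5 libraries (adjusted p = 0.068 to 0.199). The KB02 call also ended with upper-quartile scaling (0.111) and with DESeq2 (0.0705). With library size only its log2 fold change with KB02 was -0.08 (adjusted p = 0.489). LINC00938, divergent from the chromatin remodelling gene ARID2 with starts 1890 bp apart, fell with KB05 (-0.43, SE 0.09, adjusted p = 0.00032) and gave -0.20 (SE 0.09, adjusted p = 0.0688) with KB02, where ARID2 rose by 0.47 (SE 0.08). With KB05 ARID2 fell by 0.54 (SE 0.09, adjusted p = 9.34e-06).

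LINC00957 rose with KB05 (0.41, SE 0.09, adjusted p = 0.00061) at 36.5 ± 2.04 CPM, against 27.5 ± 0.828 CPM with DMSO. LINC00665 was at 37.4 ± 1.81 CPM with KB05, 38.4 ± 1.98 with KB02 and 33.4 ± 1.38 with DMSO, and passed with KB02 alone (0.20, adjusted p = 0.0385), a call that ended without any 1 of 4 libraries (adjusted p = 0.0513 to 0.151). LINC00467 passed with KB05 (0.23, adjusted p = 0.0238) and failed without DMSO replicate 1 (0.0867), DMSO replicate 3 (0.0565) or KB05 replicate 2 (0.0993). LINC01106 was lower with both at -0.25 and -0.28, calls that ended without DMSO replicate 2 and without 2 of the libraries of each compound (adjusted p = 0.0973 to 0.311). Both calls also ended with upper-quartile scaling (0.0733 with KB05 and 0.0509 with KB02) and with library size only (0.0719 and 0.23).

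Of the LINC genes listed for a described role, 10 are members, and LINC00261, LINC00520, LINC00844, LINC01116 and LINC01133 had fewer than 90 reads. LINC00324, a member 778 bp past the telomere gene CTC1, had 6.36, 7.28 and 8.91 CPM with KB05, 5.04, 4.28 and 3.44 CPM with KB02, and 4.18, 4.85 and 4.38 CPM with DMSO. It rose with KB05 by 0.75 (SE 0.18, adjusted p = 0.00117) without overlap, while CTC1 was lower with both compounds. LINC00662 was at 18.0 ± 1.95 CPM with KB05, 19.2 ± 0.99 with KB02 and 14.4 ± 1.28 with DMSO, a rise of 0.41 with KB02 (SE 0.11, adjusted p = 0.00208), and its rise of 0.32 with KB05 ended without DMSO replicate 3 (0.0934) or KB05 replicate 1 (0.133). LINC01138, LINC00674 and LINC00847 averaged at most 1.63 CPM in every group and were called in no comparison.

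LINC00304 was found almost only in KB02 libraries, with 0.156, 0.0650 and 0 CPM with KB05, 1.72, 1.22 and 1.88 CPM with KB02, and 0, 0.103 and 0 CPM with DMSO. KB02 libraries were above all others, and the KB05 and DMSO libraries lay at or under about the level of 3 counts, so no fold is given. It overlaps exons of ACSF3 on the same strand (chr16:89159146-89164245, plus), a mitochondrial acyl-CoA synthetase gene that was higher with both compounds (0.46 with KB05 and 0.48 with KB02). LINC00304 is among the 31 members with under 60 reads outside their highest group. Of those 31, 7 were higher and 1 lower with KB05, and 12 were higher and none lower with KB02, and nothing is read from these counts, because the choice of members used the same reads.

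The protein-coding gene nearest to a member was described next, for pairs within 100 kb with both genes tested. Among members lower with KB05, 11 of 16 nearest coding genes were lower (68.8%) and 3 higher, where 24.2% of all coding genes tested were lower. Among members higher with KB05, 10 of 40 neighbours were higher (25%) and 10 lower, and beside the members not called 26 of 114 were higher and 28 lower. With KB02, 8 of 14 neighbours of lower members were lower (57.1%) and 1 higher, where 27.4% of coding genes were lower. Neighbours of the members higher with KB02 numbered 11 of 38 higher (28.9%) and 9 lower, with 23.9% of coding genes higher. A neighbour and its member overlapped in 2 of the 11 pairs lower with KB05 and in 3 of the 8 pairs lower with KB02, so shared reads can enter those.

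**Figure D4:**
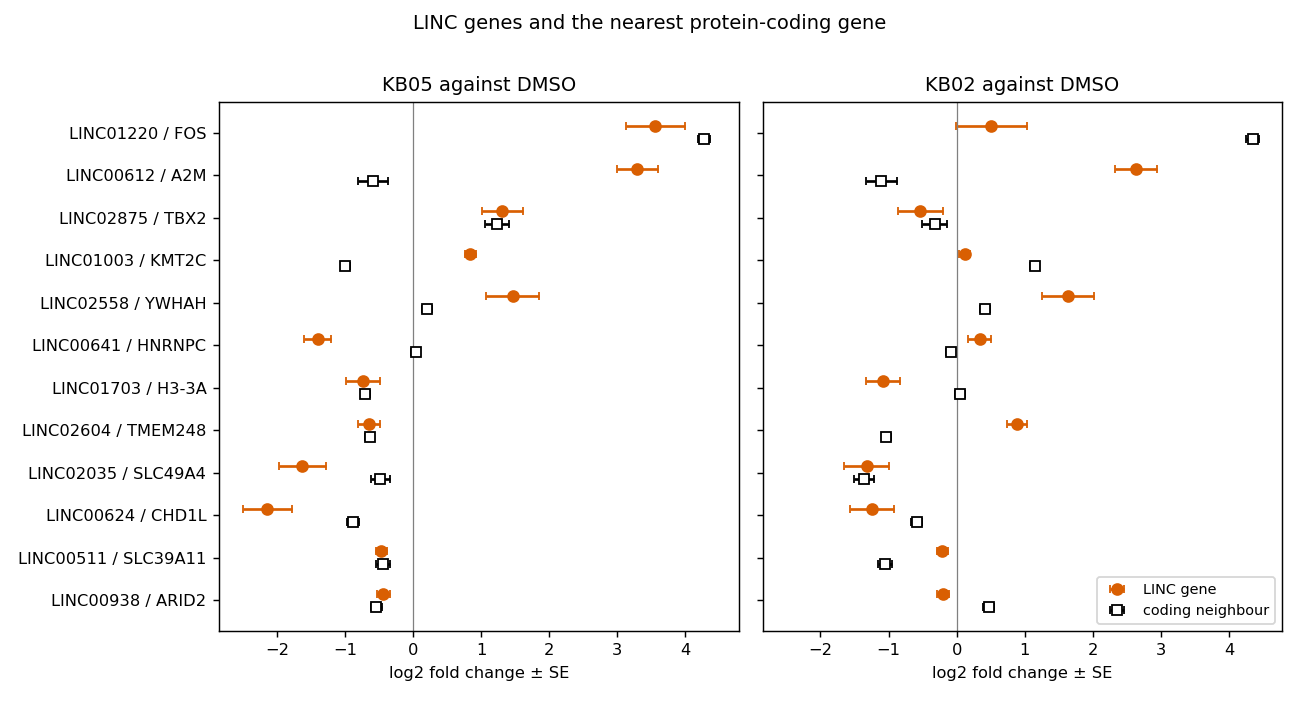
Log2 fold change with its SE (x axes) of 12 LINC genes (circles) and of the nearest protein-coding gene (squares), with KB05 against DMSO on the left and KB02 against DMSO on the right. LINC02035 and SLC49A4 or LINC00624 and CHD1L fell together, LINC02875 and TBX2 rose together with KB05, and LINC00612 and A2M or LINC01003 and KMT2C (KB05) lie on opposite sides of 0.

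Members that start within 10 kb past a gene on the same strand were set beside the others. Of these 77, 22 were higher and 5 lower with KB05, against 39 and 19 of the 190 without such a gene, and 24 were higher and 5 lower with KB02, against 34 and 16 of the 190. Over all genes tested 18.7% were higher and 21.1% lower with KB05, and 22.8% higher and 23.3% lower with KB02. Whether read-through from the upstream gene contributes was not tested. In 46 of the 77 the upstream gene was itself tested, and beside the 12 of these members higher with KB05 the upstream gene was higher in 3, lower in 5 and not called in 4. With KB02 there were 14 such members, with the upstream gene higher in 3, lower in 2 and not called in 9. Of the 129 members that overlap no annotated gene, 30 were higher and 14 lower with KB05, and 28 higher and 10 lower with KB02. Of the 138 that overlap one, 31 were higher and 10 lower with KB05, and 30 higher and 11 lower with KB02, and the difference between these classes was not tested.

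Annotated exon number was a further feature that the choice had not used. Of 38 single-exon members, 13 were higher and 6 lower with KB05, and 7 were higher and 5 lower with KB02. Of 229 members with 2 or more exons, 48 were higher and 18 lower with KB05, and 51 were higher and 16 lower with KB02. The shares over all genes are the same as above, 18.7% higher and 21.1% lower with KB05, and 22.8% higher and 23.3% lower with KB02.

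AP-1 matches stood in 3 of 43 windows of members higher with KB05 (6.98%) and in 5 of 46 of members higher with KB02 (10.9%), with 7.71% over all windows. In the windows of lower members they stood in 0 of 20 with KB05 and 0 of 16 with KB02. Antioxidant-type matches stood in 7 of 43 (16.3%) and 15 of 46 (32.6%) of these windows, beside 21.5% over all member windows and 13.3% over all promoters, and in 5 of 20 (25%) and 4 of 16 (25%) windows of members lower with KB05 and with KB02. The heat shock element was in none of the 191 member windows and in 0.490% of all windows. The cyclic AMP response element TGACGTCA was in 3.14% of member windows and 1.85% of all, the xenobiotic response element GCGTG in 33.0% and 36.5%, and the TATA box TATAAA in 14.1% and 11.5%. A loose form of the serum response element, of which the CArG box is a special case, stood in 74.9% of member windows and 78.2% of all. AP-1 and antioxidant-type matches can share bases, and the absence of a match says only that these letters are not in these windows.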

How the data were processed

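Expected counts per gene, deposited by the authors for 9 libraries of 22Rv1 cells, were used. Salmon 1.3.0, DESeq2 1.30.1 and hg38 (GRCh38.p13) are named in the submitters' processing notes. Salmon divides shared reads by estimate, and 20.3 to 24.3% of values per library held a fraction (tolerance 1e-06). How much of this share comes from overlapping genes was not tested. Expected counts were rounded, filtered with edgeR's filterByExpr (minimum count 10) and scaled by TMM. In all, 18379 genes were tested in a single quasi-likelihood fit of all groups without a block (edgeR 4.0.16, limma 3.58.1, R 4.3.3). The same fit was afterwards run on counts simulated from the levels and spread of these data. A call needs a Benjamini-Hochberg adjusted p under 0.05. CPM values are TMM-scaled and carry no pseudocount.

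The members, gene lists and naming rule were chosen with earlier results of these data known. Named are the 10 largest called rises and falls against DMSO and the 6 between compounds (mean of at least 1 CPM, libraries not overlapping), the 8 most abundant members, and members listed for a described role. Positions are GENCODE 29 on GRCh38. Alternatives were other scalings, no filter, DESeq2 1.42.0, a replicate block, fits of 2 groups, each library left out, and other membership limits. The floor on counts per library covers counting error only. SDs are taken over the libraries of a group and SEs come from the quasi-likelihood fit, so both include spread between libraries.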

Additional observations from a re-analysis of the deposited data

Results flagged for a closer look

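For 3 members the calls against DMSO went in opposite directions with the compounds. They were picked by these calls, so a difference between KB05 and KB02 follows from the choice. It is given here as a size only, from the same fit over all genes. LINC00174 gave -1.52 on the log2 scale (SE 0.15) and LINC02604 gave -1.53 (SE 0.16), each lower in all KB05 libraries and higher in all KB02 libraries than in DMSO. LINC02389, outside the rule for named genes and picked after its values were seen, had 0, 0.0650 and 0.0575 CPM with KB05, 1.55, 1.13 and 1.44 CPM with KB02, and 0.794, 0.723 and 0.182 CPM with DMSO. Its fitted difference of -4.93 rests on KB05 libraries under the level of 3 counts, so it depends on the prior count and is no bound. LINC02389 is also among the 31 members with under 60 reads outside their highest group.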

How the results depend on the processing

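Of 189 recomputed summary values, 160 stayed near their first value and 29 moved, and no named member reversed. Besides the losses given above, some calls ended in other settings. LINC00612 between the compounds ended with library size only (adjusted p = 0.062) and with DESeq2 (0.0526). With KB02, LINC00665 ended without the filter (0.117) and in a fit of 2 groups (0.0505). LINC00963 with KB02 ended without the filter (0.0651), and LINC01709 with library size only (0.0578). With KB05, LINC00467 ended without the filter (0.059) and LINC01511 with DESeq2 (0.0514). Members that overlap no annotated gene gave 30 higher and 14 lower with KB05, 28 and 10 with KB02, and 17 and 23 for KB05 against KB02. Members not downstream of a same-strand gene gave 39 higher with KB05, 34 higher with KB02, and 24 lower and a median of 0.10 for KB05 against KB02. These subsets hold fewer genes. With library size only, KB02 against DMSO gave 11 lower and a median of 0.30 (0.22 with upper-quartile scaling), and 87.9% of its calls were higher against 73.8% with TMM. KB05 against KB02 had a median of -0.0589 with library size only, 0.0140 in a fit of the 2 groups and 0.0181 with at least 180 reads, and 33.3% of its calls were higher with library size only against 45.3% with TMM. The cause of these shifts was not tested. Leaving out 1 library gave 12 to 20 lower members and medians of 0.15 to 0.26 for KB02 against DMSO, and 21 to 36 higher members and medians of -0.0152 to 0.0874 for KB05 against KB02. With a replicate block, 59 members were higher and 24 lower with KB05, 58 and 19 with KB02, and 35 and 40 for KB05 against KB02. Same-numbered libraries did not deviate together (r of -0.04 to 0.08 across genes), so the numbers were not taken to pair samples. DESeq2 called 53 higher and 21 lower with KB05, 49 and 16 with KB02, and 28 and 40 for KB05 against KB02. Under 1 CPM the median SE of 0.49 limits what could be called.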

Other observations

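Of 40 other long non-coding RNAs listed by name, 34 were tested. With KB05 against DMSO 6 were higher and 7 lower, where 18.7% of all genes tested were higher and 21.1% lower. With KB02 against DMSO 11 were higher and 4 lower, where 22.8% of all genes were higher and 23.3% lower. Between the compounds 3 were higher and 12 lower with KB05 than with KB02, where 21.8% of all genes were higher and 18.2% lower. NEAT1, the scaffold RNA of nuclear paraspeckles, averaged 194 ± 6.80 CPM with KB05, 57.4 ± 12.3 CPM with KB02 and 110 ± 9.28 CPM with DMSO (SD, n = 3 each). It rose with KB05 (log2 fold change 0.83, edgeR adjusted p = 0.000249) and fell with KB02 (-0.94, edgeR adjusted p = 7.96e-05).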
